A study of Mus musculus with 2 samples.

Results

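The 9 Krüppel-like factor genes Klf2, Klf3, Klf4, Klf6, Klf7, Klf9, Klf10, Klf12 and Klf13 were followed in B cells of mice with and without a functional Ccr7 gene. They were taken as every non-control spot of both arrays whose gene name in the scanner files was one of these 9, which gave 18 of the 41174 distinct probes on the array. Of the 18 probes, 16 passed the filter on dim spots. All 9 genes were among the 17681 genes tested. The set was selected on measured values, namely the knock-out over wild-type ratios of these same arrays, in which Klf4 was lower. The ratios of all members in this contrast are therefore given as a description with no test.

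Total RNA came from B cells sorted by flow cytometry from peripheral lymph nodes and lysed without culture. The wild-type mice were C57BL/6J, and the Ccr7 knock-out mice carried the targeted allele of the strain B6.129P2(C)-Ccr7tm1Rfor/J, which removes the chemokine receptor from every cell and not from B cells alone. The RNA of 12 sorted samples, 6 of each genotype, was combined in pools of 3, which left 2 pools per genotype and 2 dual-colour arrays with 1 pool of each genotype on each. Cy5 marked the knock-out pool on array 1 and Cy3 on array 2. A difference between the arrays can thus come from the pools, the dyes or the arrays themselves, which cannot be told apart. No age of the mice was known. The array is the unit of replication (n = 2), and the spread between the animals of a pool is not measured.

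Krüppel-like factors are transcription factors that bind GC-rich and CACCC-type DNA elements through a conserved zinc finger domain at the C-terminus, and they differ in the cofactors that the rest of the protein recruits. Klf2, Klf4, Klf6 and Klf7 belong to the members with activation domains that work with histone acetyltransferases. Klf3 and Klf12 bind the corepressor CtBP, and Klf9, Klf10 and Klf13 recruit the corepressor Sin3. In lymphocytes Klf2 is known for holding naive cells in a quiescent, recirculating state. Klf4 is known as a brake on B-cell proliferation and a target of Foxo transcription factors.

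The probes for Klf4 and Klf2 carry most of what follows, so their first 30 of 60 bases are shown. The Klf4 gene was read by a single probe, on the minus strand of chr4:55549061-55549120 of the mm8 build. The Klf2 gene was read by a bright probe at chr8:75250227-75250286 and by a dimmer one upstream of it at chr8:75248851-75248910, both on the plus strand of mm8.
Klf4 probe: aagcgctacaatcatggtcaagttcccagc
Klf2 brightest probe: tgtatataagactatgaccgattgtatttc
Klf2 dimmer probe: acacgccgccgctcagccccgacggccccc
The probes for Klf2 differ in base composition, with a GC content of 43.3% over the 60 bases of the bright probe and 78.3% over those of the dimmer one. The Klf4 probe has 45.0%.

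The array as a whole gives the scale for these values. Between 58.4% and 68.8% of spots were well above background in each channel, and no spot was saturated. The lowest share was in the knock-out channel of array 2 and the highest in the wild-type channel of the same array. Of 17681 genes, 18 (0.102%) passed a limma adjusted p of 0.05, 12 of them higher and 6 lower in the knock-out. Ccr7 had knock-out over wild-type log2 ratios of -1.11 and -0.74, with a limma adjusted p of 0.141. Its probe may lie outside the deleted part of the gene, so this ratio does not check the deletion. All 10 B-cell markers examined, among them Cd79a, were well above background in both genotypes, and 8 of the 10 had scaled-up readings. Pax5, which encodes the transcription factor that maintains B-cell identity, had -0.79 and -0.86 with a scaled-up channel (limma adjusted p = 0.14), and Cd22, an inhibitory receptor gene, had 0.20 and 0.41. Pax5 was the 1 marker of the 10 that was at least 1.5-fold lower on both arrays, a size reached by 0.368% of all genes. In 7 of the 10 the arrays had ratios of opposite sign, as in 45.8% of all genes. Ms4a1, the CD20 gene and 1 of the 8 with scaled-up readings, was among these 7, with 1.75 and -1.23.

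Klf4 was the member with the largest difference. Its normalized log2 level was 13.99 and 12.79 in the wild-type pools of arrays 1 and 2, and 12.46 and 11.65 in the knock-out pools. Both knock-out pools lay below both wild-type pools, although the pools of each genotype also lay apart from each other. The log2 ratios within the arrays were -1.53 and -1.14, a mean of -1.34 ± 0.28 (SD, n = 2), or 2.53-fold lower in the knock-out. In bulk RNA, fewer cells expressing a gene and less RNA of it per cell cannot be told apart. All 4 of its channel readings were well above background and none was scaled up from the low-gain scan. Klf4 was the 1 of 9 members past the limma threshold, on the lower side, where 0.0339% of all genes tested were called. On the higher side 0 of 9 members were called, against 0.0679% of all genes. Under the 13 alternative settings described further below, Klf4 passed the threshold in 5. The call was lost, among others, with median centring and with all 4 channel readings above background. From these counts nothing is read, since the ratios chose the set. Klf4 had the 4th lowest mean ratio of the 17681 genes.

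**Figure D1:**
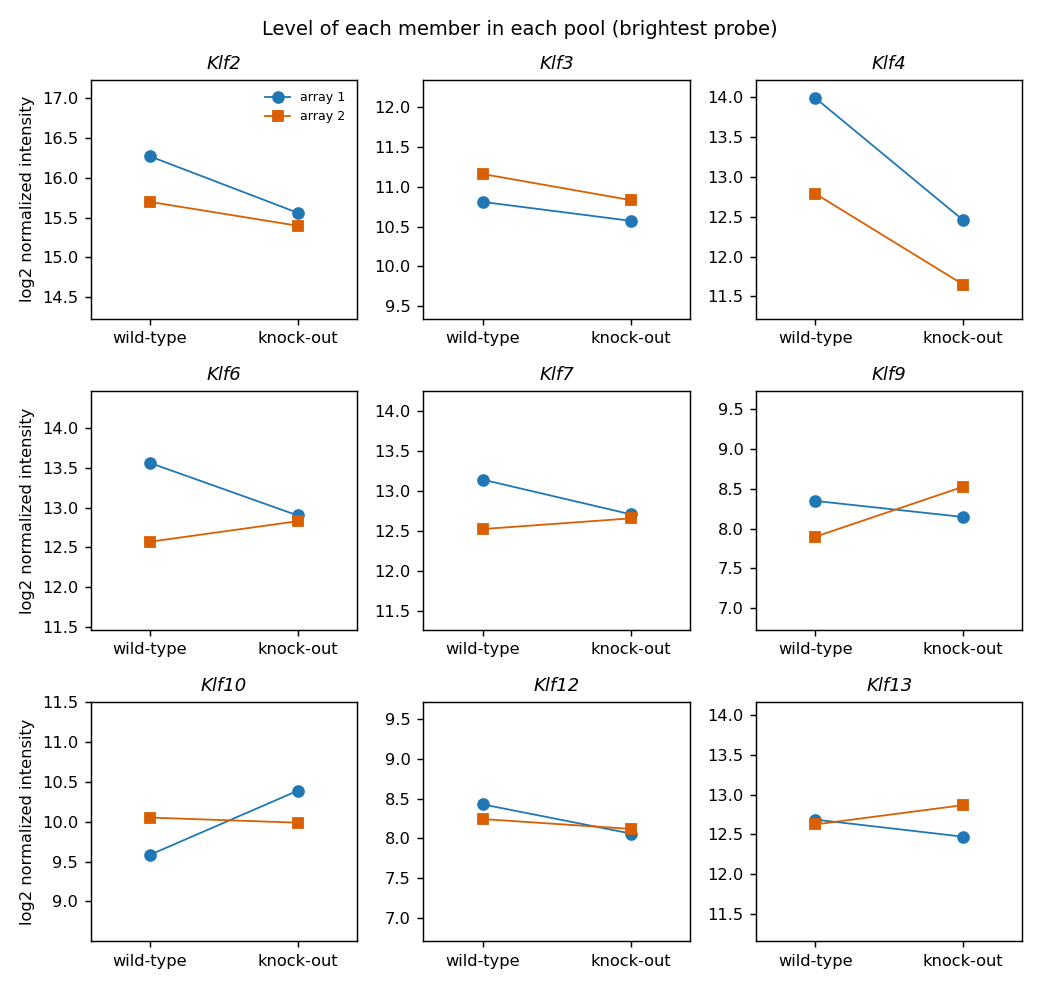
Normalized log2 intensity (vertical axes, 3 log2 units in every panel) of the brightest probe of each member in the wild-type and the knock-out pool of array 1 (circles) and array 2 (squares), with a line joining the pools of 1 array. Both lines fall for Klf4 (from 13.99 to 12.46 and from 12.79 to 11.65), Klf2, Klf3 and Klf12, and the lines of the other 5 genes run in opposite directions. Levels of different probes are not comparable.

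The probes of Klf2 went in opposite directions. The bright probe had log2 levels of 16.27 and 15.70 in the wild-type pools and 15.56 and 15.40 in the knock-out pools of arrays 1 and 2. These levels do not overlap, and the log2 ratios were -0.71 and -0.30 (mean -0.51 ± 0.29 SD, n = 2). The dimmer probe had 11.09 and 11.65 in the wild-type and 11.39 and 11.76 in the knock-out, levels that overlap, with log2 ratios of 0.31 and 0.11 (mean 0.21 ± 0.14 SD, n = 2). Thus 1 probe of the gene was lower and the other higher in the knock-out, each on both arrays. Both channels of the bright probe were scaled up from the low-gain scan on both arrays, whereas no channel of the dimmer probe was. In the deposited value table the bright probe had -0.90 and -0.28 and the dimmer probe 0.39 and 0.09, so the opposite signs are present there too. The gap of 0.72 between the mean ratios of these probes was larger than the gap between the brightest probes of 98.9% of the 5685 genes with at least 2 probes. No direction is therefore given for Klf2.

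Klf6 and Klf7 complete the members with activation domains. Klf6, a widely expressed factor that is induced early after many stimuli, had log2 levels of 13.56 and 12.57 in the wild-type pools and 12.90 and 12.83 in the knock-out pools by its bright probe. The wild-type levels differed more from each other than from the knock-out levels, which lay between them. The wild-type pools were read in different dyes, so pool and dye cannot be told apart in this gap. Its log2 ratios were -0.66 and 0.26 by this probe and -0.89 and -0.09 by the dimmer probe, so both probes were lower in the knock-out on array 1 and had opposite signs on array 2. Klf7, best known for its role in neurons, was also lower in the knock-out on array 1. Its probes gave -0.43 and -0.34 on array 1 and 0.13 and 0.14 on array 2. The mean over both arrays was -0.15 ± 0.40 (SD, n = 2) for the bright probe, a difference smaller than its spread.

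Klf3 and Klf12 encode the CtBP-binding repressors of the set. Klf3, which shapes the balance of B-cell subsets, had log2 levels of 10.81 and 11.16 in the wild-type pools and 10.57 and 10.83 in the knock-out pools by its bright probe. The ranges overlap slightly, while the ratios within the arrays were alike, at -0.24 and -0.33 (mean -0.28 ± 0.06 SD, n = 2), or 1.22-fold lower. Its dimmer probe gave 0.04 and -0.37. Klf12 was read by 4 probes, all dim, and 2 of them did not pass the filter. The brightest had ratios of -0.37 and -0.12, with knock-out levels of 8.06 and 8.12 just below the wild-type levels of 8.43 and 8.24. The next had -0.19 and 0.30, so the sign of its mean (0.06) was opposite. For the other 2 probes of Klf12, both wild-type pools were too dim to exceed the scanner's background test, and no fold is given for them.

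The members that recruit Sin3 had mean ratios above 0 by every probe that passed the filter, but in none of them were both arrays above 0. Klf10, a gene first known for its rapid induction by TGF-beta, had log2 levels of 9.58 and 10.05 in the wild-type pools and 10.39 and 9.99 in the knock-out pools. A positive ratio was present on array 1 alone, with 0.81 against -0.06 on array 2 (mean 0.37 ± 0.62 SD, n = 2). Klf9, a gene induced by glucocorticoid and thyroid hormones, showed the reverse. Its brighter probe had -0.20 on array 1 and 0.63 on array 2, and its other probe had -0.04 and 0.09. Both probes of Klf9 passed the filter but were dim. The brighter one had log2 levels of 8.35 and 7.90 in the wild-type pools and 8.15 and 8.53 in the knock-out pools. Klf13, a regulator of late Ccl5 transcription in T cells, had -0.21 and 0.24 by the bright probe and -0.01 and 0.52 by the dimmer one. In each of these 3 genes the gap between the arrays exceeded the mean difference, so no change was detectable with 2 arrays.

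**Figure D2:**
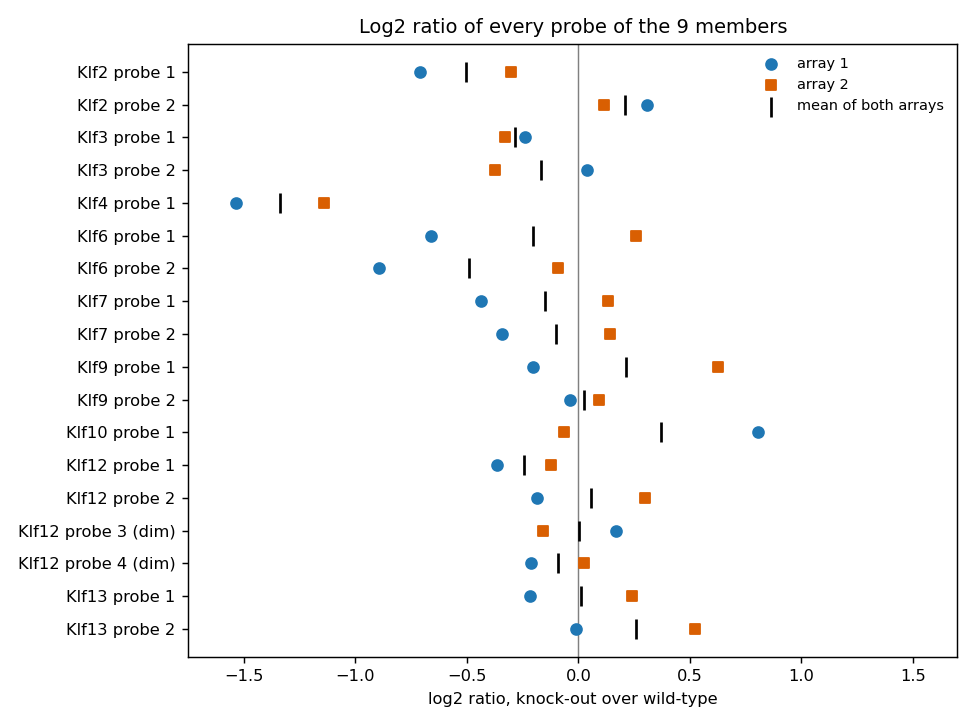
Knock-out over wild-type ratio on the log2 scale (horizontal axis) for each of the 18 probes on array 1 (circles) and array 2 (squares), with the mean of both arrays as a vertical tick. Probes are numbered from the brightest within a gene, and dim marks those that did not pass the filter. Klf4 lies at -1.53 and -1.14, apart from the rest, and the probes of Klf2 stand on opposite sides of 0.

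Across the set, 4 of 9 members (Klf2, Klf3, Klf4 and Klf12, by the brightest probe) were lower on both arrays, where 30% of all genes were, and 0 were higher on both, where 24.2% were. In the remaining 5 the arrays had ratios of opposite sign, as in 45.8% of all genes. Knock-out levels lay wholly below wild-type levels in 3 members (Klf2, Klf4 and Klf12), against 13.3% of all genes, and wholly above in 0, against 9.56%. With Klf2 read by the probe that was not scaled up, 3 members were lower and 1 higher on both arrays, and 2 lay wholly below. Only Klf4 was at least 1.5-fold lower on both arrays, a size reached by 0.368% of genes. The median log2 ratio of the 9 members was -0.37 on array 1 and -0.06 on array 2, beside medians of 0.00 and -0.02 for all genes tested. The absolute gap between the arrays had a median of 0.46 in the members and 0.20 in all genes, from 0.09 in Klf3 to 0.92 in Klf6. Of the 7 members with at least 2 probes past the filter, the brightest 2 had mean ratios of the same sign in 5 (71.4%), against 58.6% of all such genes.

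**Figure D3:**
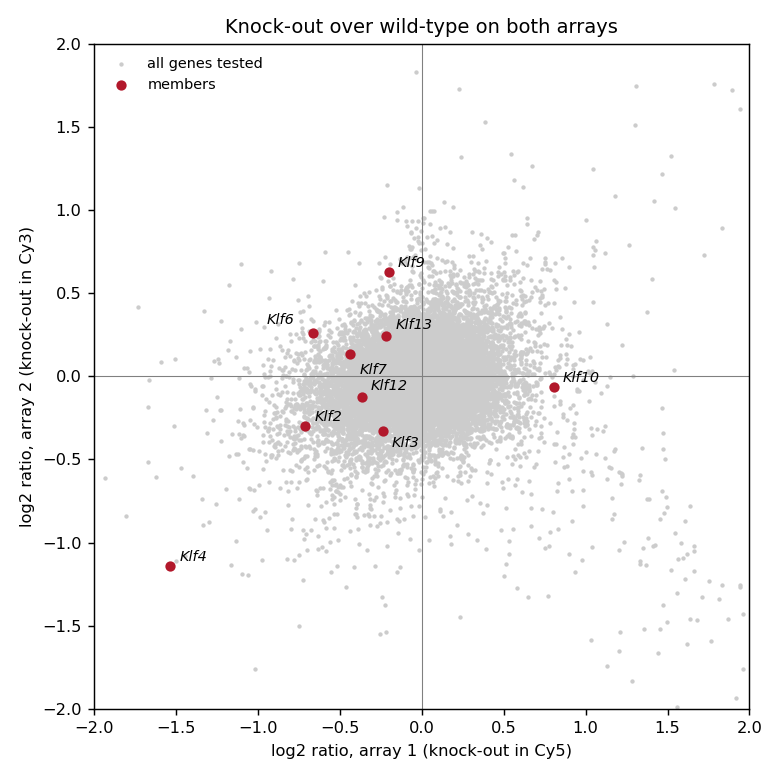
Log2 ratio on array 1 (horizontal axis) against array 2 (vertical axis) for all 17681 genes tested (grey) and the 9 members (red), with 12 genes outside the plotted range of 2 log2 units to each side. Klf4 lies at -1.53 and -1.14 in the lower left, Klf10 at 0.81 and -0.06 and Klf9 at -0.20 and 0.63 near the axes.

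The rest of the Klf and Sp family showed no called gene. Of 17 further family members, 12 were tested and 0 passed the limma threshold, against 0.102% of all genes. Their median log2 ratio was -0.02, with 2 lower and 3 higher on both arrays. Klf8, another CtBP-binding repressor, had the largest difference, with -0.33 and -0.36 on the arrays (limma adjusted p = 0.469). Klf11, a Sin3-recruiting relative of Klf10, had 0.34 and 0.08 (limma adjusted p = 0.737). Sp1 and Sp3, the ubiquitous activators that compete for GC boxes, had mean ratios of -0.14 and 0.00.

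Genes that act upstream of Klf2 and Klf4 were examined next. Klf2 transcription is driven in many cells by the kinase Erk5 (Mapk7) through Mef2 factors, and both genes are targets of Foxo factors. Of 15 such genes, all 15 were tested and 0 passed the limma threshold, against 0.102% of all genes, with a median log2 ratio of -0.09. Mef2b, which is prominent in germinal centre B cells, had 0.54 and 0.32 on the arrays (limma adjusted p = 0.371), and Mef2a had -0.59 and -0.03 (limma adjusted p = 0.65). Mapk7 had a mean of -0.09, Foxo1 -0.24 and Foxo3 -0.27. Among 16 Foxo target genes tested, 0 passed, beside the same 0.102%. Their median was -0.03, and Trib1 and Gadd45a had the largest differences with -0.58 and -0.55. The Gadd45a value came from -1.04 on array 1 and -0.06 on array 2.

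The region before the Klf2 and Klf4 start sites is shown because both genes are usually described through factors that bind there. The 250 bases upstream of the start are given on the coding strand, from RefSeq on GRCm38.p6. Capitals mark the GC box GGGCGG, the cyclic AMP element core TGACG and the Mef2-type motif CTANNNNTAG, each searched on both strands.
Klf2, chr8:72318812-72319061, plus strand: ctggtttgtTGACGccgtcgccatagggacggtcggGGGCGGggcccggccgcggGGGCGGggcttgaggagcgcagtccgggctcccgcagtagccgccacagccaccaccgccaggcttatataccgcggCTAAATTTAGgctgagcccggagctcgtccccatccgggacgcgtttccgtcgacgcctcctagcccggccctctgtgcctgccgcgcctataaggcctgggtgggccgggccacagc
Klf4, chr4:55532476-55532725, minus strand: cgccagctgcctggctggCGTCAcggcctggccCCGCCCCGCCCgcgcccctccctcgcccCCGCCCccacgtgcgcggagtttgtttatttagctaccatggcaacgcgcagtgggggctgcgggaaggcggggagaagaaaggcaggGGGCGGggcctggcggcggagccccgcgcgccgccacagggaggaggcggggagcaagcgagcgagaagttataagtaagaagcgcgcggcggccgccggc
Klf2 holds 2 GC boxes, 1 TGACG and 1 CTANNNNTAG match, the last ending 108 bases before the start. Klf4 holds 4 GC boxes, of which only the first 2 as printed overlap, 1 TGACG and no CTANNNNTAG match. Over 32851 promoter windows of the same length, 32.7% held GGGCGG, 17.8% TGACG and 3.2% CTANNNNTAG. Of the 9 members 8 were matched in the promoter set, and Klf2 was the only one of them with CTANNNNTAG. The GC content was 71.2% for Klf2 and 74.0% for Klf4, within a range of 48.0% (Klf12) to 78.4% (Klf3) for the 8 members and beside a median of 52.4% over all windows. A match is a description of letters and not evidence of binding.

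Genes linked to the functions of Klf2 and Klf4 were read beside the 0.102% of all genes that passed the limma threshold. At that share, 0 calls in a list of this size says little. The homing and subset genes connected with Klf2 were all measured, and 0 of 14 passed the limma threshold, with a median log2 ratio of 0.05. S1pr1, the sphingosine-1-phosphate receptor for lymph node exit and a classical Klf2 target, had -0.22 and -0.12. Itgb7, an integrin subunit for gut homing, had -0.35 and -0.05. The largest differences were in Ccr6, with 0.36 and 0.79 (limma adjusted p = 0.308), and in the early activation antigen Cd69, with 0.31 and 0.72 (limma adjusted p = 0.347). Of the 14 genes 7 had a scaled-up channel, among them Ccr6 and Itgb7, whereas Cd69 and S1pr1 had none. The genes without a scaled-up channel had a median of -0.004. Of 14 cell cycle genes connected with Klf4, 0 passed, with a median of -0.08. Ccnd2, a cyclin that Klf4 is known to repress in B cells, had 0.18 and 0.30, Cdkn1a, a cell cycle inhibitor that Klf4 activates, had 0.03 and -0.17, and Myc and Cdk4, which had the largest mean ratios of the list, had -0.69 and 0.10, and 0.12 and 0.43.

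Cofactors and ubiquitin ligases of Klf proteins gave small mean ratios. All 16 were tested and 0 passed the limma threshold, against 0.102% of all genes. On both arrays 8 were lower and 0 higher, beside 30% and 24.2% of all genes, and the means ran from -0.42 to 0.00. The median was -0.10, and -0.05 when the probes of each gene were averaged. Smurf1, a ubiquitin ligase, had -0.58 and -0.25, and the acetyltransferase gene Kat2b had -0.34 and -0.36. The CtBP genes Ctbp1 and Ctbp2 had means of -0.05 and -0.18, and the Sin3 genes Sin3a and Sin3b had -0.05 and -0.01. In the TGF-beta pathway around Klf10, 0 of 14 genes passed, beside the same 0.102%, with a median of 0.05. Smad7, a feedback inhibitor that TGF-beta induces, had -0.76 and -0.31 (limma adjusted p = 0.347), and Tgif1 had 0.38 and 0.40 (limma adjusted p = 0.394).

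Immediate early and stress genes were, by their median, lower in the knock-out as Klf4 was. Of 27 listed genes 23 were tested, and 14 were lower and 0 higher on both arrays, against 30% and 24.2% of all genes. The list's median log2 ratio was -0.40 on array 1 and -0.38 on array 2. At least 1.5-fold lower on both arrays were 5 members, against 0.368% of all genes. Hspa1a, an inducible heat shock protein gene, was the only one of the 23 to pass, with a mean of -1.30 ± 0.15 (SE, n = 2; limma adjusted p = 0.0486). The list had 0 calls in each setting that left no called gene at all, with median centring and with all 4 channel readings above background. It had 2 with a robust, trended prior, 5 without genes with a scaled-up channel and 6 without scaled-up probes. Calls over all genes rose in those settings too, from 18 to 78, 99 and 131. Fos and Jun, which encode subunits of AP-1, had -1.80 and -0.84, and -0.99 and -0.66. The phosphatase gene Dusp1 had -1.62 and -0.61, and the stress gene Ppp1r15a -1.40 and -0.60. Among the 13 genes of this list without a scaled-up channel the median was -0.60, and among all such genes on the array it was -0.01. The list was chosen with earlier results of these arrays known and includes genes already seen to be lower, so its direction is no independent support. Any part that these genes or their common regulation had in the Klf4 ratio was not tested.

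**Figure D4:**
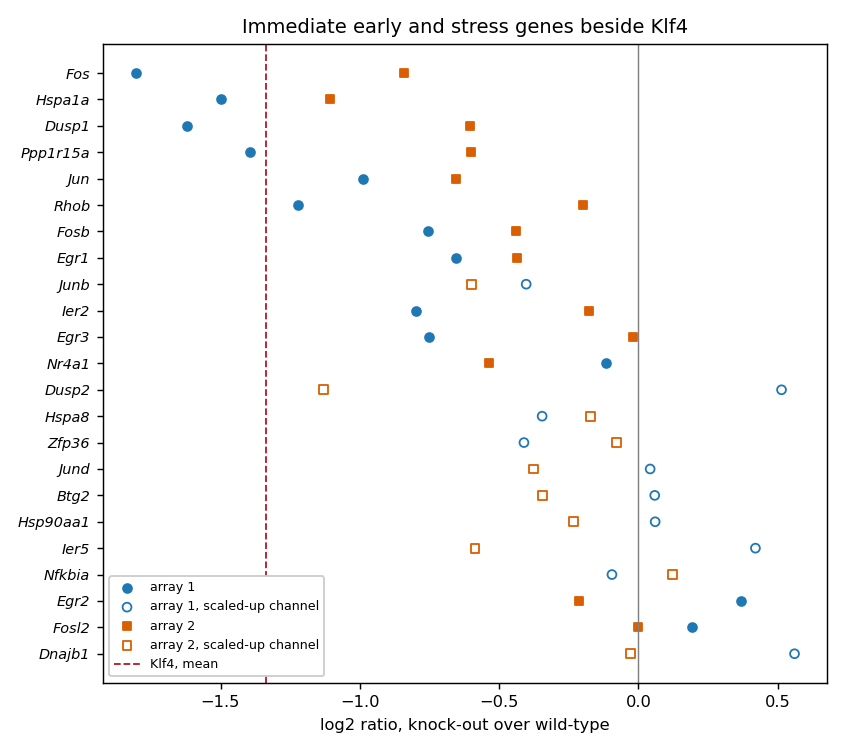
Ratio of the knock-out to the wild-type pool in log2 units (horizontal axis) for the 23 immediate early and stress genes tested, on array 1 (circles) and array 2 (squares), ordered by their mean. Open symbols are genes with low-gain readings in any channel, and the dashed line is the Klf4 mean of -1.34. Fos, Hspa1a, Dusp1 and Ppp1r15a lie nearest to that line.

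Among genes outside the family, those with ratios most like Klf4 were sought by Euclidean distance over the 2 log2 ratios, among 11352 genes above background in every channel and with none scaled up. The nearest were Hspa1a (distance 0.05), the chemokine gene Ccl3 (0.32), Rgs1, a regulator of G-protein signalling (0.35), the histone gene H2bc4 (0.37) and Fos (0.40). Hspa1a stood apart from the next gene in this order. Around the bright probe of Klf2, where genes lie densely, the nearest 3 were Slc25a27, Irf2 and Pex11g, each at a distance of 0.01. With 2 arrays such a likeness rests on 2 numbers per gene and describes only these pools.

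Markers of other cells that express Klf2 or Klf4 were read beside these values. Of 12 macrophage, monocyte and granulocyte markers 9 were tested, 9 of them above background in the wild-type and 6 in the knock-out on both arrays, with a median log2 ratio of 0.02. On array 2 only 58.4% of all knock-out spots were above background, against 68.8% of wild-type spots, so 9 against 6 is not read as a difference. The mean log2 level of these markers was 7.85 and 8.01 in the wild-type pools and 8.10 and 7.74 in the knock-out pools, so the genotypes overlapped. Adgre1, the F4/80 antigen gene, had -0.29 and -1.14, and S100a9, a granulocyte and monocyte gene, 0.92 and 0.00. The lysozyme gene Lyz2 had 1.22 and -0.60, so single markers of this list went in both directions. Csf3r and S100a8 did not pass the filter. Of 14 endothelial and stromal markers 10 were tested, with a median of 0.08, mean levels of 7.38 and 7.43 in the wild-type and 7.49 and 7.54 in the knock-out, and Pdpn, Prox1, Tie1 and Pdgfrb not passing the filter. Col1a2, a collagen gene, had 0.54 and 0.24, and the chemokine gene Cxcl12 had 0.61 and 0.43 without being well above background in both wild-type pools. Of 11 T-cell markers 9 were tested with a median of -0.03. Their mean levels were 8.81 and 8.79 in the wild-type pools and 8.69 and 8.51 in the knock-out pools. Thy1 had -0.93 and -0.63 and Cd3d -0.56 and -0.64, while Cd3e had a mean of 0.03. Of 7 NK-cell markers 4 were tested, with a median of -0.13, and with means of -0.57 for Klrd1 and 0.37 for Prf1. Of 8 dendritic-cell markers 6 were tested, with a median of 0.01, and with means of 0.22 for Xcr1 and -0.14 for Batf3. The 6 plasma-cell markers had a median of -0.02 and included Jchain at 1.81, a called rise. The 2 erythroid genes tested had 0.48 (Hba-a1) and -0.23 (Hbb-bt). No marker of these lists other than Jchain passed the limma threshold, which 0.102% of all genes passed. The part of such cells in the Klf values was not tested.

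The ratios of the members were recomputed from both arrays under 13 alternative settings. The mean ratio of Klf4 ran from -1.81, with no within-array normalization, to -1.33, a direction that the choice of the set had fixed. Klf3, Klf6, Klf7 and Klf12 also had mean ratios below 0 in all 13. Some settings changed only the filter or the fit, and these left the ratio of a kept brightest probe as it was. Except for Klf2, the scanner's ratio and the deposited value table gave the same member values. The counts of settings given here are therefore not counts of separate checks. All 13 used both arrays, and array 2 alone gave 0.26 for Klf6 and 0.13 for Klf7. Klf2 was below 0 in 11 of the 12 settings that gave it a value, and it was 0.21 when scaled-up probes were left out and -0.15 with the mean of both probes. Klf9 and Klf10 were above 0 in 12 of 13, the exception being no within-array normalization, with -0.12 and -0.09. In that setting the median of all genes was itself -0.39. Relative to it Klf9 and Klf10 were at 0.28 and 0.30, and Klf4 was at -1.42. Klf13 was 0.01 in the values reported and -0.28 with median centring, where the median of all genes was -0.17, so that its sign depends on the scaling.

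**Figure D5:**
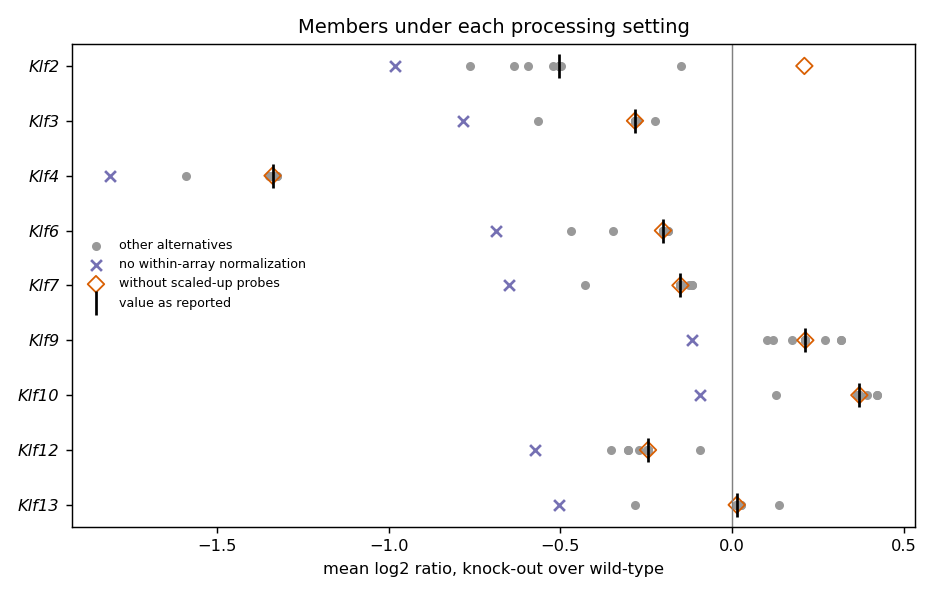
Mean log2 ratio, knock-out to wild-type (horizontal axis), of each member as reported (vertical tick) and under each alternative (grey points), with no within-array normalization as crosses and without scaled-up probes as open diamonds. Klf4 stays between -1.81 and -1.33, and the diamond of Klf2 lies at 0.21, across 0 from its other values.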

How the data were processed

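B-cell RNA of 2 wild-type and 2 Ccr7 knock-out pools was read on 2 arrays of 1 slide. Per the labels' protocols, amplification started from 20 ng of total RNA. Per the file headers, the authors' Agilent Feature Extraction 9.5.3.1 gave the deposited intensity values of spots and local background, on mm8, and the deposited log10 ratio of Cy5 over Cy3, background-subtracted and dye-normalized; the brightest spots were scaled up from a second, low-gain scan. The deposited value table is log2: at 42512 and 42515 of 43379 spots it equalled that ratio with the knock-out as numerator (tolerance 0.001), and the others were all scaled-up spots, processed in a way the sources used here do not give. Its column medians were 0.

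Background was corrected with normexp (offset 50) and arrays by loess in limma 3.58.1 with R 4.3.3 (span 0.3, 4 iterations; weight 0 for 1639 control spots). Flagged outlier spots were left out. A probe was kept where a genotype was well above background on both arrays, and a gene was represented by its brightest probe. Levels are channel values after Aquantile scaling. Ratios were fitted with lmFit and eBayes (+1 knock-out in Cy5, -1 in Cy3; 1 residual and 6.2 prior degrees of freedom) with Benjamini-Hochberg adjustment across the 17681 genes, threshold 0.05. The offset shrinks dim ratios. Of 41174 probes, 33092 were named through RefSeq accession, symbol or synonym, and the others kept the file's name. The fit was tested on simulated data.

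The members and lists were chosen with earlier results of these data known. Named were the members, Ccr7, from each list the members past the threshold or else the 2 with the largest mean ratio, and the genes nearest to Klf4 and Klf2; other genes given by value were chosen for their role, after the values were seen. Nothing shows how the pooled samples differed, so variation inside a pool is not estimated. The residual behind each p-value is the gap between the 2 arrays, on which pool pair and dye orientation changed together. With no separate dye term in the fit, a dye bias of a probe goes into that gap. The variance also leans on the prior over all genes, with 6.2 prior against 1 residual degree of freedom. The smallest exact p of a permutation over 2 arrays could not reach the threshold.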

Additional observations from a re-analysis of the deposited data

How the results depend on the processing

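With 2 arrays and 1 residual degree of freedom, precision is limited by the number of arrays, and dim probes by signal over background. Of the 18 called genes (12 higher, 6 lower) 0 were left when all probes of a gene were averaged, when the deposited value table or the log ratio of the scanner program was fitted, without background subtraction, without normalization inside each array, and when channels were fitted separately with no replicate block, which drops the pairing of pools on an array. The count was 4 with median centring (3 higher, 1 lower), 9 (9 higher, 0 lower) when all 4 channel readings had to exceed background, 78 (30 higher, 48 lower) with a robust, trended prior, 99 without genes with a scaled-up channel (35 higher, 64 lower) and 131 without scaled-up probes (45 higher, 86 lower), the last an alternative chosen after seeing the data. The causes of these shifts were not tested. With a normexp offset of 10 it was 25 and with no filter on dim probes 19. The mean log2 ratio of Klf4 was -1.81 with no within-array normalization, where the median of all genes was -0.39. Relative to that median Klf4 was at -1.42. Leaving out either array gave -1.53 to -1.14.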
